A study of Mus musculus with 108 samples.

Results

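Liver RNA of male 129S1/SvImJ mice (129), an inbred strain, was compared between night and day. The mice were wild type and ate normal chow, with no transgene or agent in the labels, which give no age or light schedule. Night was zeitgeber time (ZT, hours after lights on) 18 and 22, and day was ZT6 and ZT10, with 3 replicate libraries at each time. This gave 6 night and 6 day libraries, 12 of the 108 in the series, which asked how strain and diet shape daily rhythms of the liver. The same 4 times were read in wild-type 129 males on a high-fat diet (HFD, given in the labels as a high fat and sucrose diet, D12492i) and in wild-type C57BL/6J (B6) males on normal chow, with 12 libraries in each set. The labels do not say whether replicates were separate animals, so the p-values measure only the spread between libraries. For the gene tests this spread was estimated from all 72 wild-type libraries. Each value is a quantile-normalised read number of the highest transcript of a gene, so it is an RNA level on a scale shared by all libraries, and depth is unknown.

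In mouse liver the activators CLOCK and BMAL1 (gene Arntl) switch on the Per and Cry genes, whose proteins in turn hold the activators down. The REV-ERB receptors (Nr1d1, Nr1d2) repress Arntl, and the D-box factors Dbp, Tef and Hlf carry the rhythm to metabolic genes. Mice eat mostly at night. Feeding raises insulin, which through SREBP1c (Srebf1) raises the genes of fatty acid synthesis, and the fed liver secretes large amounts of protein through the endoplasmic reticulum (ER), whose chaperones are induced by the unfolded protein response.

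The night libraries stood apart in more than these pathways. Mir6236, a microRNA entry at chr9:110281287-110281409 in mm10, lay between 39055 and 61431 (median 51117) in the 6 night libraries. In the 6 day libraries it lay between 37.2 and 3213 (median 726). The ranges were far apart, and no test is given, since this split was known when the comparison was chosen. Mir6240, at chr5:114851948-114852064, followed the same split, from 0 to 9.81 by day and from 91.7 to 2590 at night, and with Mir6236 as a covariate its rise went from 7.44 to 3.22 and did not pass (adjusted p = 0.0531). The mature microRNAs of these entries, taken from RefSeq (GRCm38.p6, which is mm10), are shown with their seeds (bases 2 to 8) in capitals because these entries were the 2 largest rises of the contrast. They do not share a seed.
mmu-miR-6236: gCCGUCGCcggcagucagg
mmu-miR-6240: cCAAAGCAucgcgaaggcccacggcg
The mature miR-6236 lies at chr9:110281353-110281371 and miR-6240 at chr5:114851973-114851998, both on the plus strand and both inside the longer entries, so the table's values are those of the entries and not of the mature microRNAs. How reads that map to several places were counted is not given in the sources used here, so the values of Mir6236, Mir6240 and Rn45s may include reads placed at several sites.

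Rn45s, the precursor of ribosomal RNA, named after its values were seen, was the highest gene in all 6 night libraries, and Alb, the serum albumin gene, stood at rank 3 with 176662. By day Alb was the highest gene in 5 of 6 libraries, and in ZT10 replicate 1 Rn45s was the highest. A second measure that moved was the GC slope, the change of a library's log2 deviations from the gene means for each 10 points of transcript GC percent. It was 0.57 ± 0.11 at night and -0.06 ± 0.59 by day (SD, n = 6 libraries each), and the exact two-sided permutation p was 0.00433 (0.0216 after Benjamini-Hochberg adjustment over 5 tests, of this slope in 3 sets and of Mir6236 in the other two). Its ranges overlapped: 0.41 to 0.73 at night and -0.99 to 0.45 by day. In 129 on HFD the medians of Mir6236 were 1100 at night and 1064 by day (exact permutation p = 0.457), and in B6 on chow 279 and 120 (exact permutation p = 0.554). The GC slope differed between night and day by 0.18 in 129 on HFD (exact permutation p = 0.0368, adjusted 0.092) and by 0.15 in B6 on chow (exact permutation p = 0.617). Within 129 chow the level of Mir6236 and night cannot be told apart. Gene changes are therefore given as deposited, after removal of each library's GC and length trend, and with the log2 level of Mir6236 as a covariate. Among the 12 libraries ZT22 replicate 3 had 6.95% of tested genes under a value of 1, against at most 1.1% in the others, and ZT6 replicate 3 had a GC slope of 0.37 against -0.99 and -0.59 in the other ZT6 libraries.

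**Figure D1:**
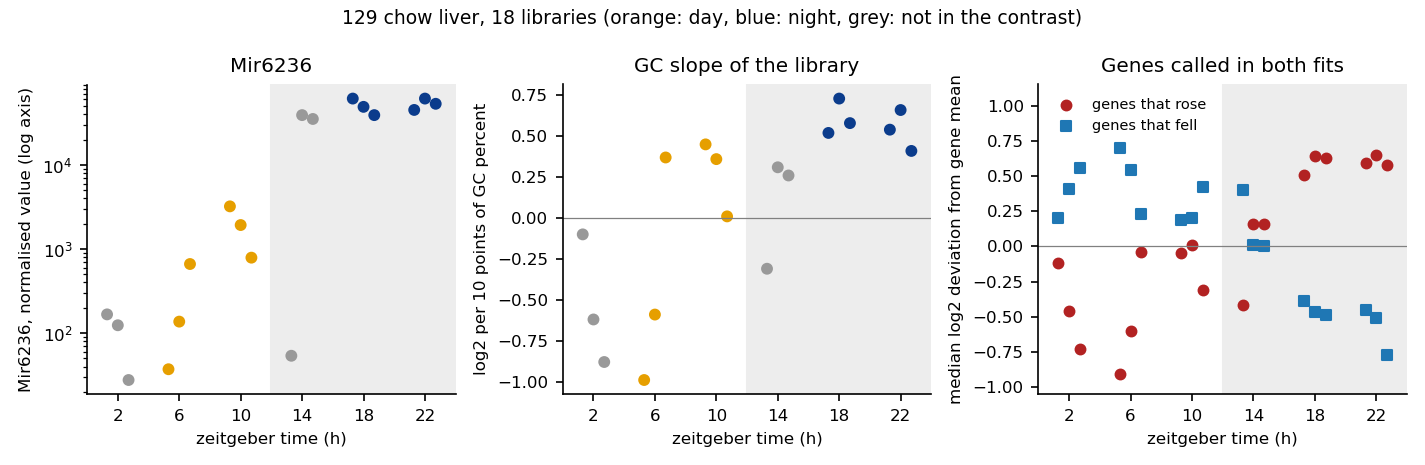
Each point is 1 of the 18 libraries of 129 chow liver by zeitgeber time, with a grey band after ZT12. Left, the normalised value of Mir6236 on a log axis, centre, the GC slope, and right, the median log2 deviation of the 1053 genes that rose and the 1079 that fell in both fits. The 6 night libraries hold Mir6236 between 39055 and 61431, and 2 of the 3 libraries at ZT14 hold it at 39055 and 35151.

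Of 11286 genes tested, 1660 rose at night (14.7% of all) and 2683 fell (23.8%) at an adjusted p under 0.05 (limma, Benjamini-Hochberg). Of these, 707 rose and 737 fell by at least 2-fold. The genes that rose had a median transcript GC of 55.2% and those that fell of 45.0%, against 49.6% in all genes tested. With the GC and length trend removed 1860 of 11230 genes rose (16.6%) and 1361 fell (12.1%), so the share of rises among the calls went from 38.2% to 57.7%. With Mir6236 as a covariate 302 of 11285 genes rose (2.68%) and 531 fell (4.71%). The median standard error of the rises widened there from 0.24 to 0.32, and their median change went from 0.91 to 0.33 on the log2 scale. As deposited and with the trend removed alike, 1053 genes rose (9.33%) and 1079 fell (9.56%). Called in the same direction in all 3 fits were 245 rises and 335 falls. For 553 genes all 6 night libraries lay above all 6 day libraries (4.9%), and for 665 all lay below (5.89%).

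The libraries that the contrast did not use placed these genes as follows. At ZT14 the 1053 rises had a median log2 deviation of -0.42 in replicate 1, 0.16 in replicate 2 and 0.16 in replicate 3, with Mir6236 at 53.8, 39055 and 35151. The 1079 falls had 0.40, 0.01 and 0.00 in the same libraries. At ZT2 the rises had -0.12, -0.46 and -0.73, with Mir6236 at 167, 124 and 27.7. Whether the level of Mir6236 has a part in these values was not tested.

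Clock genes moved in both directions. Of 5 activators 4 rose and 0 fell, and of 10 repressors 3 rose and 4 fell, against 14.7% and 23.8% of all genes. Arntl, which encodes BMAL1, ranged from 6.31 to 177 by day (median 32.3) and from 107 to 246 at night (median 176). It rose by 2.20 ± 0.41 (log2 ± SE, adjusted p = 3.38e-05), though the ranges overlapped, since at ZT6 it was high in 2 of 3 libraries. Clock rose by 0.53 (adjusted p = 0.00161) with overlapping ranges, 389 to 1319 by day and 803 to 1194 at night. Npas2, which can stand in for CLOCK, had an adjusted p of 0.0489 and did not pass in 8 of the 12 fits that left out 1 library (ZT6 replicate 2, ZT10 replicates 1 and 2, ZT18 replicates 1 and 2, and each ZT22 replicate), where its log2 change was 1.20 to 1.70. Nor did it pass with the GC and length trend removed (adjusted p = 0.0792) or with Mir6236 as a covariate (adjusted p = 0.406).

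Among the repressors Cry1, which silences CLOCK and BMAL1, lay between 32.0 and 121 by day (median 52.5) and between 164 and 364 at night (median 252). It rose by 1.93 (adjusted p = 6.11e-08) with no overlap. Per2, which works in the same complex, went from 23.1 to 164 by day (median 89.4) to 220 to 479 at night (median 341), a log2 rise of 2.14 (adjusted p = 5.13e-10). Per3 moved the other way, from a median of 193 by day to 41.1 at night (log2 change -1.41, adjusted p = 0.000626). The REV-ERB genes fell most: Nr1d1 from 45.2 to 199 by day (median 81.0) to 1.42 to 18.5 at night (median 11.5), and Nr1d2 from 730 to 1548 (median 1289) to 71.5 to 314 (median 136). Their log2 changes were -3.27 (adjusted p = 2.17e-06) and -3.06 (adjusted p = 8.00e-14), and neither pair of ranges overlapped. Per1, Cry2, Ciart and Rora did not pass, with log2 changes of 0.93, 0.20, -0.94 and -0.05 (adjusted p = 0.24, 0.763, 0.249 and 0.692). Bhlhe40 rose by 0.67 (adjusted p = 0.00139) while its paralog Bhlhe41 fell by 2.44 (adjusted p = 0.00338). With Mir6236 as a covariate the calls of Arntl, Clock, Nr1d1, Nr1d2, Per2 and Cry1 were the same, and those of Per3, Bhlhe40 and Bhlhe41 did not pass (adjusted p = 0.0706, 0.402 and 0.381).

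Dbp, the D-box activator, was among the largest falls of all genes, from 27.4 to 394 by day (median 215) to 0 to 32.2 at night (median 22.6). Its log2 change was -3.29 (adjusted p = 3.62e-07), and the ranges overlapped because ZT6 replicate 1, at 27.4, lay below ZT18 replicate 1, at 32.2. Tef fell by 0.63 (adjusted p = 0.00494). Nfil3, which represses the same D-box sites, rose by 0.69 (adjusted p = 0.00834), and Hlf by 0.56 (adjusted p = 0.0225), but Hlf did not pass without ZT6 replicate 3 or ZT10 replicate 1 (adjusted p = 0.0786 and 0.0587). Nfil3 did not pass with the trend removed (adjusted p = 0.0699), and with Mir6236 as a covariate neither Nfil3 nor Hlf did (adjusted p = 0.115 and 0.0679). Within the day several of these genes still moved: from ZT6 to ZT10 Dbp rose by 3.12 (adjusted p = 0.00748), Per2 by 1.72 (adjusted p = 0.00173) and Tef by 1.68 (adjusted p = 7.86e-05), while Arntl fell by 3.31 (adjusted p = 0.000429). From ZT18 to ZT22 Nr1d2 fell by 1.52 (adjusted p = 0.0108). The same night and day contrast called Arntl, Cry1, Nr1d1, Nr1d2 and Dbp in the same directions in 129 on HFD and in B6 on chow. For Per2 the contrast was larger in 129 chow than in B6 chow by 1.45 (adjusted p = 0.00295) and than in 129 on HFD by 1.5 (adjusted p = 0.00795). With the covariate the first passed (adjusted p = 0.0377) and the second did not (adjusted p = 0.207).

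The promoter of Cry1 carries the E-box CACGTG, the site that CLOCK and BMAL1 bind, and is shown as the 250 bases before its start (chr10:85185055-85185304, minus strand, RefSeq, GRCm38.p6) with the E-box in capitals.
Cry1: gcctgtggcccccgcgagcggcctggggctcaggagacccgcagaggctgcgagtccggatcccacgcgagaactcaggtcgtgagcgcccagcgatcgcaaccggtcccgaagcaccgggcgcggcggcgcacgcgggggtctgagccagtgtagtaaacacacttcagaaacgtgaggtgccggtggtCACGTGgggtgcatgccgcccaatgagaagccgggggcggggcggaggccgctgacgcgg
An E-box stood in this window in 3 of the 8 clock repressors with a promoter in the table (Cry1, Ciart and Bhlhe41), and in 8.54% of the 8944 tested genes with one (both strands searched). Among genes that rose in both fits the share was 8.96%, and among those that fell 9.09%. The D-box TTATGTAA stood in 0.537% of all promoters, and Per3 had 2.

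**Figure D2:**
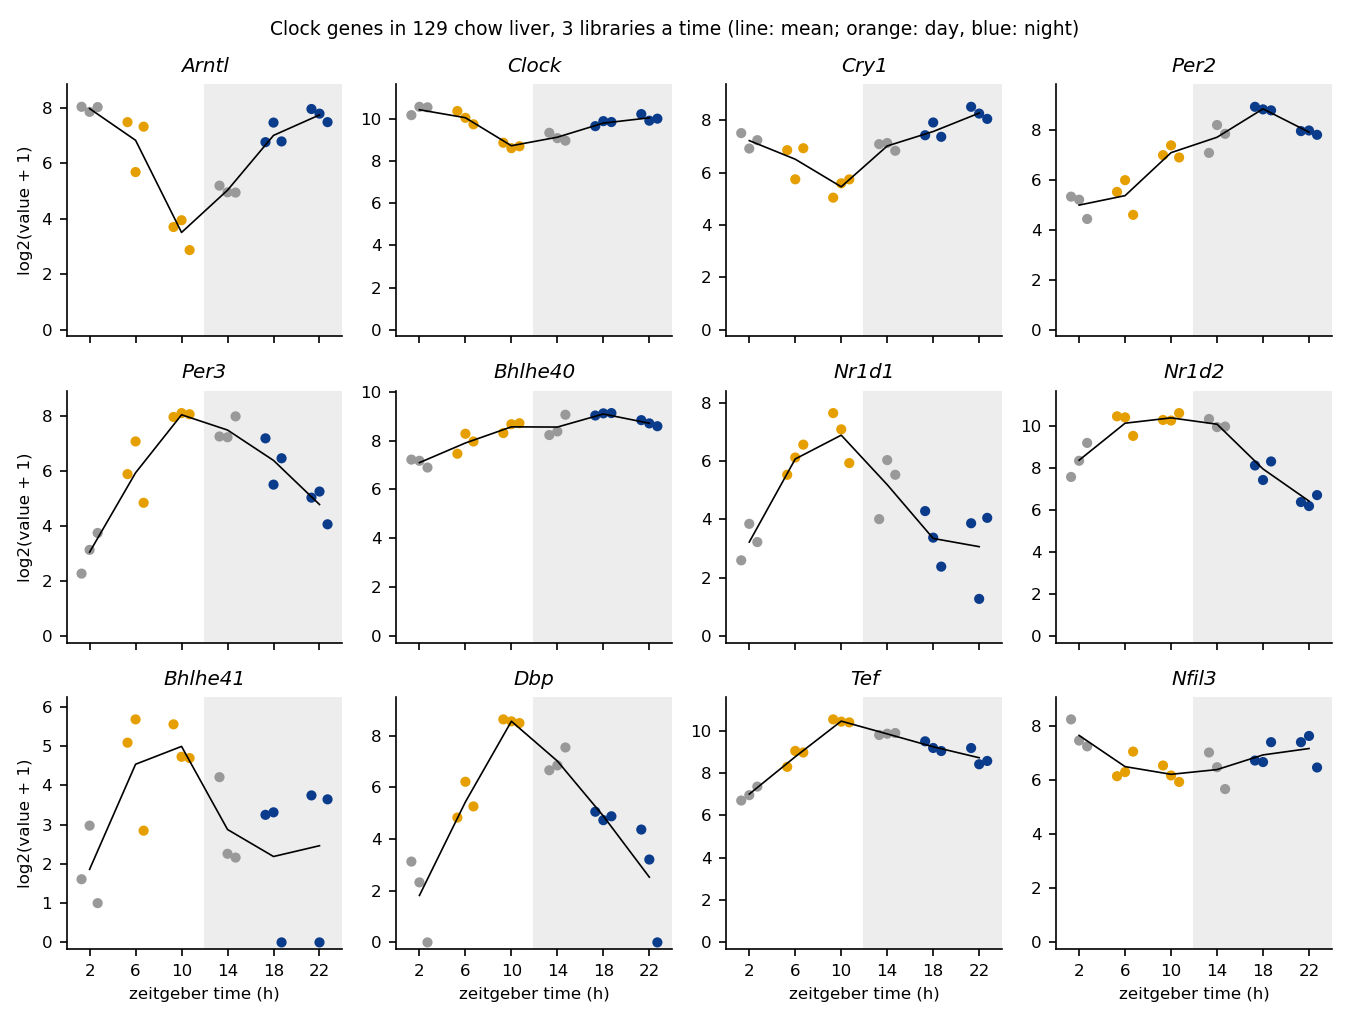
Log2(value + 1) of 12 clock genes against zeitgeber time in 129 chow liver, with 1 point for each of 3 libraries a time, a line through the means and a grey band after ZT12. Day libraries are orange, night libraries blue and other times grey. Nr1d1 and Nr1d2 lie lower in every night library than in any day library, and Cry1 and Per2 higher.

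ER chaperones and genes of the unfolded protein response were higher at night. Of 23 members tested 15 rose and 0 fell, against 14.7% and 23.8% of all genes, and their median log2 change was 0.63 against -0.11. With the GC and length trend removed 19 rose, and with Mir6236 as a covariate 9 did, with 0 falls in either. Creld2, a small ER protein made under stress, went from 28.8 to 70.3 by day (median 42.4) to 154 to 910 at night (median 338), a log2 rise of 2.86 ± 0.55 (adjusted p = 4.95e-05). Syvn1, the ubiquitin ligase that clears misfolded ER proteins, went from 27.9 to 83.7 (median 55.6) to 156 to 423 (median 321), a rise of 2.51 ± 0.47 (adjusted p = 4.41e-05). Hyou1, a large ER chaperone, went from 307 to 817 (median 460) to 2071 to 3197 (median 2459), a rise of 2.38 ± 0.28 (adjusted p = 3.43e-09). Manf, a secreted ER stress protein, rose by 1.89 (adjusted p = 1.80e-07). No night library overlapped a day library for any of these 4. Xbp1, the transcription factor of the response and named after its values were seen, was at 845 to 1139 by day and 879 to 1014 at night (log2 change -0.08, adjusted p = 0.732), where RNA level says nothing of its splicing.

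Hspa5, the master chaperone BiP, and Hsp90b1 (GRP94) are named here after their values were seen. Hspa5 was at 2228 to 5753 by day (median 3102) and 6059 to 15389 at night (median 9283), a rise of 1.48 (adjusted p = 1.97e-07) with no overlap. Hsp90b1 rose by 0.67 (adjusted p = 0.00181) with overlapping ranges, 4278 to 10206 by day and 7679 to 14178 at night. Both passed with Mir6236 as a covariate (log2 change 1.75 and 1.02, adjusted p = 6.02e-05 and 0.00435), while Creld2 and Syvn1 did not (1.56 and 1.13, adjusted p = 0.197 and 0.279).

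The ER stress response element (ERSE, CCAAT then 9 bases then CCACG, as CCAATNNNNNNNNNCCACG on either strand) was searched in the 250 bases before each start. It stood in 15 of 8944 promoters (0.168%), and 8 of those were among the 18 promoters found for this list (44.4%). The promoters of 4 members that rose are shown with the element in capitals, and these 4 were chosen because they carry it. Where the element lies on the other strand, its reverse complement is in capitals.
Hspa5: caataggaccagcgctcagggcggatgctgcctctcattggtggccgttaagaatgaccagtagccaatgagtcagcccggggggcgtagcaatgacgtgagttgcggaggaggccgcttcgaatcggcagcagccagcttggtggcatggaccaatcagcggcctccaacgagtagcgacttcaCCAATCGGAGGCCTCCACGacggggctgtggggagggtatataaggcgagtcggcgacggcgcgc
Hsp90b1: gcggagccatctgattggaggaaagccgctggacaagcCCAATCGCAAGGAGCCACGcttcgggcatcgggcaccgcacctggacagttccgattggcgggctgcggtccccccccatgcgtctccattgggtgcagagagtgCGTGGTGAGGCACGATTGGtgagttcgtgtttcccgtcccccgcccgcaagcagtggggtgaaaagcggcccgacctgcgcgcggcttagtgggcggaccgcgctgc
Creld2: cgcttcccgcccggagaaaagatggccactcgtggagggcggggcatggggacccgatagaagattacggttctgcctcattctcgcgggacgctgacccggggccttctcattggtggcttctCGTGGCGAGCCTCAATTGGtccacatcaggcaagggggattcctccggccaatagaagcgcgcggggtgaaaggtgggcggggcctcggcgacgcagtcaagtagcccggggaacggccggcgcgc
Syvn1: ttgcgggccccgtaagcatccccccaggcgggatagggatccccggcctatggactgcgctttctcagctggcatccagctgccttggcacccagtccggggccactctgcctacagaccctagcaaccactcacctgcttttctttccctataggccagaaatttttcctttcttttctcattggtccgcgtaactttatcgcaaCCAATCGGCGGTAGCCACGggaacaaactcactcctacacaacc
They lie at chr2:34771840-34772089 (plus strand), chr10:86705445-86705694 (minus strand), chr15:88819396-88819645 (plus strand) and chr19:6046326-6046575 (plus strand), from RefSeq, GRCm38.p6. Hsp90b1 has 2 elements and the others 1. Of all 15 genes with the element 9 rose and 0 fell at night (14.7% and 23.8% of all genes). With the GC and length trend removed 10 rose (16.6% of all genes). Outside the list it stood in 7 genes, of which Acnat2, Acacb and Hnrnpa3 rose (log2 change 1.93, 1.41 and 0.87, named after their values were seen). Acacb did not pass with the trend removed (0.78, adjusted p = 0.111) or with Mir6236 as a covariate (0.59, adjusted p = 0.6). Of the 8 genes in the list with the element 6 rose. Pdia6 and Canx, named after their values were seen, did not pass (log2 change 0.30 and -0.04, adjusted p = 0.157 and 0.774). With the trend removed both did (0.54 and 0.44, adjusted p = 0.0144 and 9.27e-05). Among genes that fell in both fits 0 of 836 promoters held it. A match of letters shows no binding.

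The same contrast in 129 on HFD called 14 of the 23 members higher (2.6% of all genes rose there). In B6 on chow it called 0, near the 1.84% of all genes that rose. There were 0 falls in both sets (2.16% and 2.38% of all genes fell). The difference between 129 chow and B6 chow passed for 11 of the 23 members, all larger in 129 (4.75% of all genes), and for 14 with the GC and length trend removed (4.51%). The difference between 129 chow and 129 HFD passed for 0 of the 23. This is near the shares of all genes, 0.558% larger and 1.88% smaller in 129 chow. For Hyou1 the contrast in B6 was 0.24 (adjusted p = 0.783), and it was smaller than in 129 chow by 2.14 ± 0.39 (adjusted p = 0.000301). For Hspa5 the values were 0.24 in B6 chow (4077 to 7952 by day and 4525 to 10206 at night) and a difference of 1.24 ± 0.29 (adjusted p = 0.00417). The difference, with Mir6236 as a covariate, passed for Hspa5 (1.48, adjusted p = 0.014) and did not pass for Hyou1 (1.33, adjusted p = 0.0842).

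**Figure D3:**
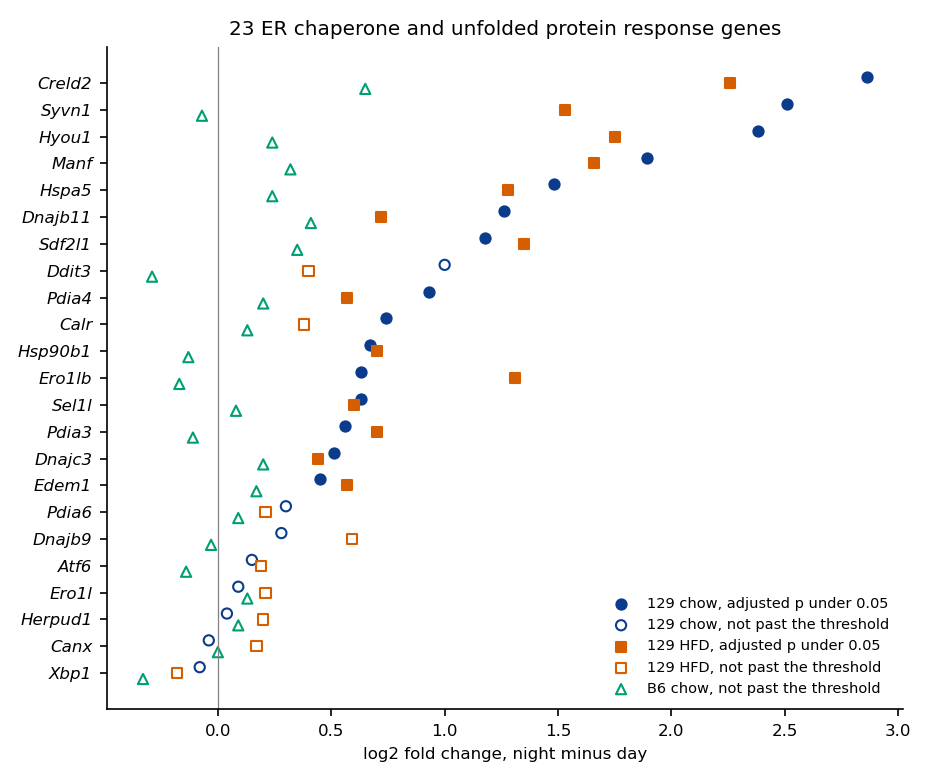
Log2 change from day to night for the 23 tested genes of ER chaperones and the unfolded protein response in 129 chow, 129 HFD and B6 chow. Filled symbols passed an adjusted p of 0.05: 15 in 129 chow, 14 in 129 HFD and 0 in B6 chow. Of all genes 14.7%, 2.6% and 1.84% rose in these sets.

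In the list of heat shock chaperones, most of them cytosolic but with the mitochondrial Hspd1 and Hspe1 among them, 11 of 15 tested rose and 0 fell, against 14.7% and 23.8% of all genes. With the GC and length trend removed 11 rose, and with Mir6236 as a covariate 6 did (16.6% and 2.68% of all genes). Hsph1, which recharges HSP70, went from 110 to 242 by day (median 174) to 457 to 762 at night (median 614), a rise of 1.87 (adjusted p = 2.03e-09). Hsp90aa1, an HSP90, went from 578 to 1606 (median 882) to 1934 to 3142 (median 2714), a rise of 1.51 (adjusted p = 5.94e-08). Neither overlapped, and both passed in every fit above. Bag3, an HSP70 partner, rose by 1.64 (adjusted p = 9.00e-05) and Hspb1, a small heat shock protein, by 2.19 from very low day values of 0 to 7.24 (adjusted p = 0.00102), and neither passed with the covariate (1.19 and 1.05, adjusted p = 0.107 and 0.402). Of these 15 genes 9 rose in B6 on chow and 4 in 129 on HFD (1.84% and 2.6% of all genes). Of the cold-inducible RNA-binding proteins Cirbp fell by 0.72 (adjusted p = 0.0103), while Rbm3 fell by 0.45 (adjusted p = 0.00965) as deposited and was at 0.12 with the GC and length trend removed (adjusted p = 0.559). With the covariate neither passed (adjusted p = 0.0793 and 0.344). In the list of protein entry into the ER and secretory transport 10 of 27 genes rose and 2 fell. The counts were 18 and 0 with the trend removed, 5 and 1 with the covariate, and 10 and 5 without ZT6 replicate 3. Of all genes 14.7% rose and 23.8% fell as deposited, 16.6% and 12.1% with the trend removed, and 2.68% and 4.71% with the covariate. Among them were the vesicle coat genes Sec31a (log2 change 0.84, adjusted p = 4.79e-06) and Sec24d (0.70, adjusted p = 1.62e-05, or 0.42 and 0.118 with the covariate).

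Genes of lipid storage were among the largest protein-coding rises. Angptl8, an insulin-induced inhibitor of triglyceride clearance, was at 0.043 to 29.3 by day (median 9.01) and 344 to 960 at night (median 474). On the log2(value + 1) scale it rose by 5.87 ± 0.74 (adjusted p = 1.98e-08). G0s2, which blocks the breakdown of stored triglyceride, went from 15.4 to 116 (median 26.7) to 452 to 1133 (median 598), a rise of 4.36 ± 0.59 (adjusted p = 9.48e-08). Both stood far above every day library. In 129 on HFD Angptl8 went from a median of 24.1 to 86.5 (adjusted p = 0.272) and G0s2 from 121 to 192 (adjusted p = 0.879). In B6 on chow the medians were 24.1 and 61.5 for Angptl8 and 66.1 and 206 for G0s2 (adjusted p = 0.777 and 0.268). With Mir6236 as a covariate Angptl8 still passed (2.84, adjusted p = 0.039) and G0s2 did not (2.22, adjusted p = 0.0531).

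Of 18 fatty acid synthesis genes 8 rose and 1 fell, with a median log2 change of 0.52 (14.7% and 23.8% of all genes, median -0.11). The fall was Elovl5, an elongase of long unsaturated chains named after its values were seen, at -0.84, or -0.41 with the GC and length trend removed (adjusted p = 0.00801 and 0.234). With ZT10 alone as the day, a choice made after seeing the data, 3 rose, where 574 of all 11286 genes did. With Mir6236 as a covariate 0 rose (2.68% of all genes). Fasn, the fatty acid synthase, lay between 174 and 1076 by day (median 487) and between 1826 and 7850 at night (median 3685), a rise of 2.97 ± 0.46 (adjusted p = 1.76e-06). Srebf1, its activator, went from 75.7 to 958 (median 452) to 1300 to 1615 (median 1410), a rise of 2.04 ± 0.41 (adjusted p = 9.82e-05). Neither gene's ranges overlapped. Their adjusted p with Mir6236 as a covariate was 0.0858 and 0.526. No member of the list rose in 129 on HFD or in B6 on chow, near the 2.6% and 1.84% of all genes that rose there. For triglyceride synthesis and lipid droplets 5 of 16 rose and 2 fell, 8 rose without ZT6 replicate 3, 5 rose and 4 fell with the trend removed, and 0 rose or fell with the covariate. Agpat2, which makes phosphatidic acid, rose by 1.48 (adjusted p = 2.46e-05), Plin5, a droplet coat protein, by 0.97 (adjusted p = 0.000718), and Lpin1, the next enzyme of the path, fell by 1.46 (adjusted p = 0.000483). With the covariate these 3 stood at 0.28, 0.67 and -1.20 (adjusted p = 0.617, 0.203 and 0.115), and Plin5 was at 0.42 with the trend removed (adjusted p = 0.123). For Lpin1 the contrast differed from that in 129 on HFD by -2.29 (adjusted p = 0.00456) and from that in B6 on chow by -1.92 (adjusted p = 0.00554), and neither difference passed with the covariate (adjusted p = 0.274 and 0.0949). At ZT14, which the contrast did not use, Lpin1 was at 3057 to 5330 in 129 chow. That is above its ranges of 404 to 2019 by day and 236 to 634 at night.

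For glucose entry, glycolysis and glycogen 9 of 19 rose and 3 fell, against 14.7% and 23.8% of all genes. With Mir6236 as a covariate 1 rose and 2 fell (2.68% and 4.71% of all), and without ZT10 replicate 3 the rises were 6. With ZT10 alone as the day 2 rose and 4 fell, where 574 and 1099 of all 11286 genes did. Ppp1r3b, which brings phosphatase to glycogen, went from 404 to 1287 (median 747) to 3377 to 4641 (median 3599), a rise of 2.37 ± 0.23 (adjusted p = 1.88e-11). Ugp2, which makes the UDP-glucose of glycogen, fell from 3885 to 8980 (median 4758) to 1287 to 1987 (median 1459), by 1.83 (adjusted p = 4.81e-10). Ppp1r3b and Ugp2 passed with Mir6236 as a covariate (2.29 and -1.18, adjusted p = 3.66e-06 and 0.00226). Gapdh rose by 1.52 (adjusted p = 0.00236) as deposited and stood at -0.30 with the covariate (adjusted p = 0.731). Of 14 gluconeogenesis genes 6 rose and 1 fell, with the covariate 0 rose or fell, and with ZT10 alone 1 rose and 1 fell. Among the rises were Tat, which breaks down tyrosine, and Ppp1r3c, another glycogen subunit, at 1.20 and 1.52 (adjusted p = 0.00157 and 7.38e-05), which did not pass with the covariate (0.84 and 1.20, adjusted p = 0.235 and 0.0731).

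**Figure D4:**
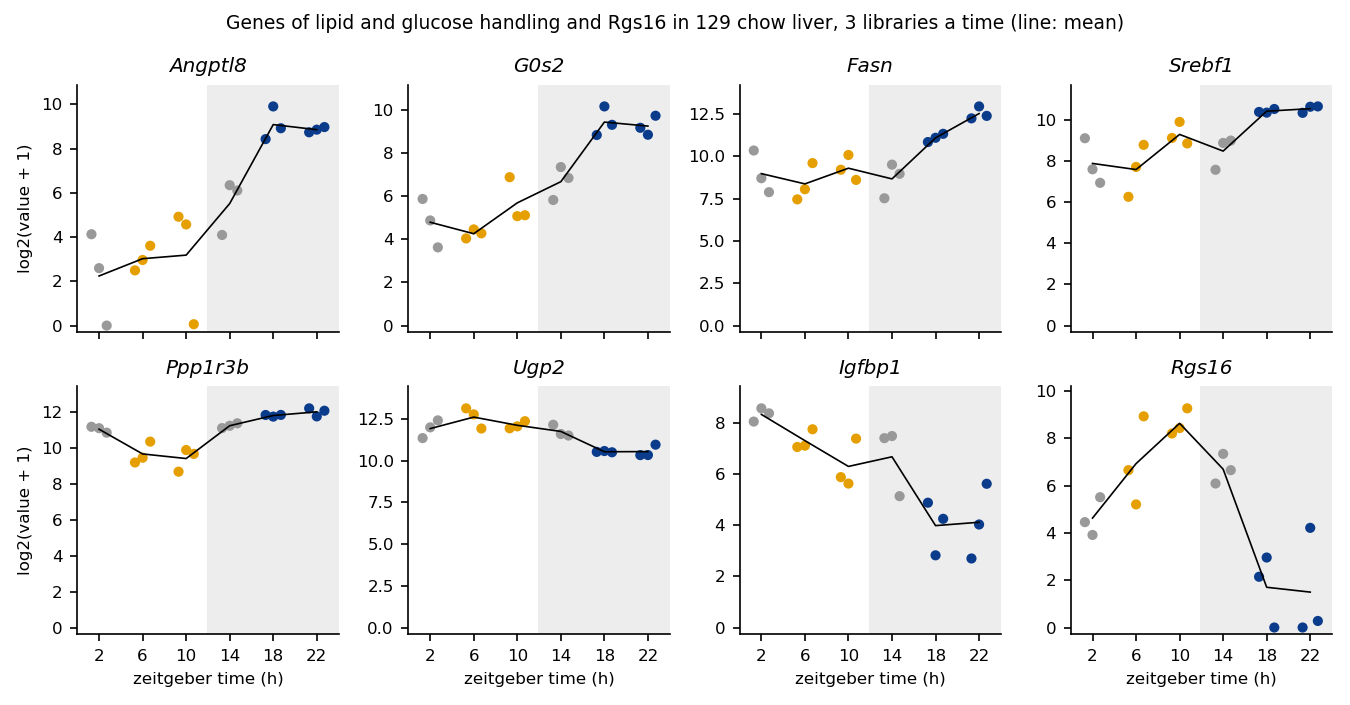
Log2(value + 1) of 8 genes, 7 of lipid and glucose handling and Rgs16, against zeitgeber time in 129 chow liver, with 1 point per library, a line through the means and a grey band after ZT12. Day libraries are orange, night libraries blue and other times grey. Angptl8, G0s2, Fasn, Srebf1 and Ppp1r3b are higher in every night library than in any day library, and Ugp2, Igfbp1 and Rgs16 lower.

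For cholesterol synthesis and uptake 11 of 25 genes rose and 1 fell, and 16 and 0 with the GC and length trend removed (14.7% and 23.8%, and 16.6% and 12.1%, of all genes). The fall was Nsdhl, a demethylation enzyme of the pathway named after its values were seen, at -0.91 (adjusted p = 0.0162), or -0.68 without ZT22 replicate 3 (adjusted p = 0.088), -0.50 with the trend removed (adjusted p = 0.207) and -0.42 with Mir6236 as a covariate (adjusted p = 0.595). Srebf2, the activator of the pathway, lay between 19 and 57.8 by day (median 40.7) and between 105 and 226 at night (median 131), a rise of 2.01 (adjusted p = 0.000378). Its night libraries all lay above every day library. Mvk, the mevalonate kinase, went from 4.45 to 27.3 (median 16.8) to 29.6 to 94.2 (median 36.7), also with no overlap, a rise of 1.53 (adjusted p = 0.00201) that stood at 0.85 with the GC and length trend removed (adjusted p = 0.07). Mvd, which makes isopentenyl diphosphate, overlapped between 0 to 9.88 by day and 2.66 to 94.6 at night. It rose by 2.32 (adjusted p = 0.00882), or by 1.84 without ZT6 replicate 1 and 1.80 without ZT22 replicate 2, where it did not pass (adjusted p = 0.0557 and 0.0503). Under the Mir6236 covariate 5 members rose, and Srebf2, Mvk and Mvd were not among them (0.96, 0.62 and 1.44, adjusted p = 0.352, 0.519 and 0.409). In the list 1 member rose in 129 on HFD (2.6% of all genes). In B6 on chow 0 rose and 1 fell (1.84% and 2.38% of all genes). These counts are near those shares. Of 20 bile acid genes 3 rose and 7 fell (14.7% and 23.8% of all genes), with 1 rise without ZT6 replicate 1 and 5 without ZT6 replicate 3. With the covariate 1 rose and 2 fell. Slco1b2, a bile acid and drug importer, fell from 13124 to 30870 (median 18118) to 6435 to 10104 (median 7794), by 1.30 (adjusted p = 2.12e-07), and stood at -0.52 with the covariate (adjusted p = 0.125). Cyp7a1, the rate-limiting enzyme of bile acid synthesis, had medians of 1914 by day and 1973 at night (log2 change -0.03, adjusted p = 0.964), with day libraries from 504 to 4832 (named after its values were seen). At ZT14, which the contrast did not use, Cyp7a1 was at 5311 to 8519, above every day and night library.

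Genes that fell at night included members of the lists of insulin, glucocorticoid and autophagy genes. Of 14 glucocorticoid and fasting targets 2 rose and 4 fell, a share of falls near the 23.8% of all genes. Without ZT6 replicate 3 the rises were 6, and with Mir6236 as a covariate 1 rose and 1 fell. Igfbp1, the insulin-repressed binding protein of IGF1, fell from 48.4 to 214 by day (median 134) to 5.49 to 48.1 at night (median 16.7), by 2.75 ± 0.53 (adjusted p = 5.64e-05). The ranges came close but did not overlap. In 129 on HFD its medians were 64.7 and 61.3 (log2 change -0.11, adjusted p = 0.969), and the contrast there differed by -2.64 (adjusted p = 0.0428). That difference did not pass with the GC and length trend removed (-2.53, adjusted p = 0.0733) or with the covariate (-2.21, adjusted p = 0.489). Igfals, which stabilises circulating IGF1, rose by 1.84 (adjusted p = 5.07e-05), and was at 0.26 with the covariate (adjusted p = 0.741). In the list of insulin signalling and IGF binding 7 of 13 rose and 1, Igfbp1, fell (14.7% and 23.8% of all genes). In that list 2 rose with the covariate (2.68% of all genes) and 1 with ZT10 alone as the day (574 of all 11286 genes). Klhl24, an adaptor of a ubiquitin ligase, fell from 1326 to 2516 (median 1682) to 290 to 383 (median 336), by 2.36 ± 0.14 (adjusted p = 2.73e-19). It also fell in 129 on HFD by 1.08 and in B6 on chow by 0.80 (adjusted p = 2.70e-07 and 0.000106), less than in 129 chow (differences of -1.28 and -1.56, adjusted p = 0.000153 and 6.27e-07). With the covariate the first did not pass (-0.96, adjusted p = 0.107) and the second did (-1.28, adjusted p = 0.000696). Gabarapl1, an autophagosome protein, fell from 1768 to 3642 (median 2638) to 636 to 1183 (median 869), by 1.60 (adjusted p = 2.96e-10). Bmf, which promotes cell death, fell by 2.37 (adjusted p = 0.000195), and Klf9, a glucocorticoid-induced factor, by 1.01 (adjusted p = 3.03e-06). Klhl24, Gabarapl1, Bmf, Klf9 and Igfbp1 passed with Mir6236 as a covariate. For autophagy and lysosome 3 of 20 rose and 7 fell (23.8% of all genes fell), 3 fell with the trend removed, and 0 rose and 3 fell with the covariate. Without ZT6 replicate 1 only 1 rose.

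Cdkn1a, which encodes the cell cycle inhibitor p21, rose in all 3 sets. It went from 0 to 13.2 by day (median 2.83) to 35.8 to 168 at night (median 59.1), a rise of 4.36 ± 0.60 (adjusted p = 1.74e-07), with 4.23 in 129 on HFD and 2.82 in B6 on chow (adjusted p = 2.02e-06 and 0.00212). In its list of cell cycle genes 1 of 16 rose and 6 fell (14.7% and 23.8% of all genes). With the GC and length trend removed 2 fell (12.1% of all genes), with Mir6236 as a covariate 1 (4.71%), and without ZT6 replicate 1 the falls were 3. Ccng2, an atypical cyclin that slows growth, fell by 1.36 (adjusted p = 0.000123). Of the growth hormone path Socs2, a feedback inhibitor, fell from 40.5 to 136 (median 80.1) to 0.05 to 39.1 (median 22.6), by 2.61 (adjusted p = 0.00184). Jak2, the kinase of the receptor, fell by 0.91 (adjusted p = 6.18e-07). Bcl6, a transcriptional repressor with male-biased expression in liver, rose by 1.63 (adjusted p = 0.00321), and more than in B6 on chow by 2.49 (adjusted p = 0.00681, or 0.1 with the covariate). With the covariate the calls of Ccng2, Socs2 and Bcl6 were lost (-0.58, -1.54 and 1.32, adjusted p = 0.351, 0.334 and 0.203).

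Rgs16 was the largest fall of all. This regulator of G protein signals, known in liver as a fasting-induced gene, was at 36.0 to 618 by day (median 320) and 0 to 17.6 at night (median 1.82). On the log2(value + 1) scale it fell by 6.19 ± 0.79 (adjusted p = 2.53e-08), and by 6.34 with Mir6236 as a covariate (adjusted p = 0.000172). In 129 on HFD the night libraries held 36.6 to 177 (log2 change -0.95, adjusted p = 0.658), and the contrast differed by -5.24 (adjusted p = 0.00584). In B6 on chow they held 0 to 32.4 (log2 change -2.16, adjusted p = 0.123), and it differed by -4.02 (adjusted p = 0.0127). With the covariate these differences were -5.40 and -4.16 and did not pass (adjusted p = 0.148 and 0.0815).

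Among the other large changes Tsku, a secreted liver protein, rose by 4.11 ± 0.37 (19.9 to 310 by day and 789 to 1871 at night, adjusted p = 3.29e-12). Ppard, a nuclear receptor of fatty acids, rose by 3.93 from 0 to 7.32 by day to 27.6 to 137 at night (adjusted p = 2.45e-08). Celsr1, a cadherin of planar cell polarity, rose by 3.31 (adjusted p = 2.74e-10) and passed in all 3 sets. Gpcpd1, a phosphodiesterase of glycerophosphocholine, fell by 2.41 (adjusted p = 3.75e-08) and passed in all 3 sets, as did Syt1, a synaptotagmin, which fell by 2.24 (adjusted p = 1.53e-09). At ZT14, which the contrast did not use, Gpcpd1 was at 3197 to 4510, against 685 to 3594 by day. Of the 15 largest rises 8 passed with Mir6236 as a covariate, out of 14, since Mir6236 is one of them and has no such value. In the same direction, 4 passed in 129 on HFD and 2 in B6 on chow. Of the 15 largest falls 13 passed with the covariate, and 6 and 7 passed in the other sets. Rpph1, the RNA of RNase P, and Rpl36, a ribosomal protein, were among the rises at 3.16 and 2.86 (adjusted p = 0.000525 and 0.000361), and stood at -0.34 and -0.19 with the covariate (adjusted p = 0.836 and 0.896). Reads of Rpl36 and other ribosomal protein genes can be split among their pseudogenes.

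**Figure D5:**
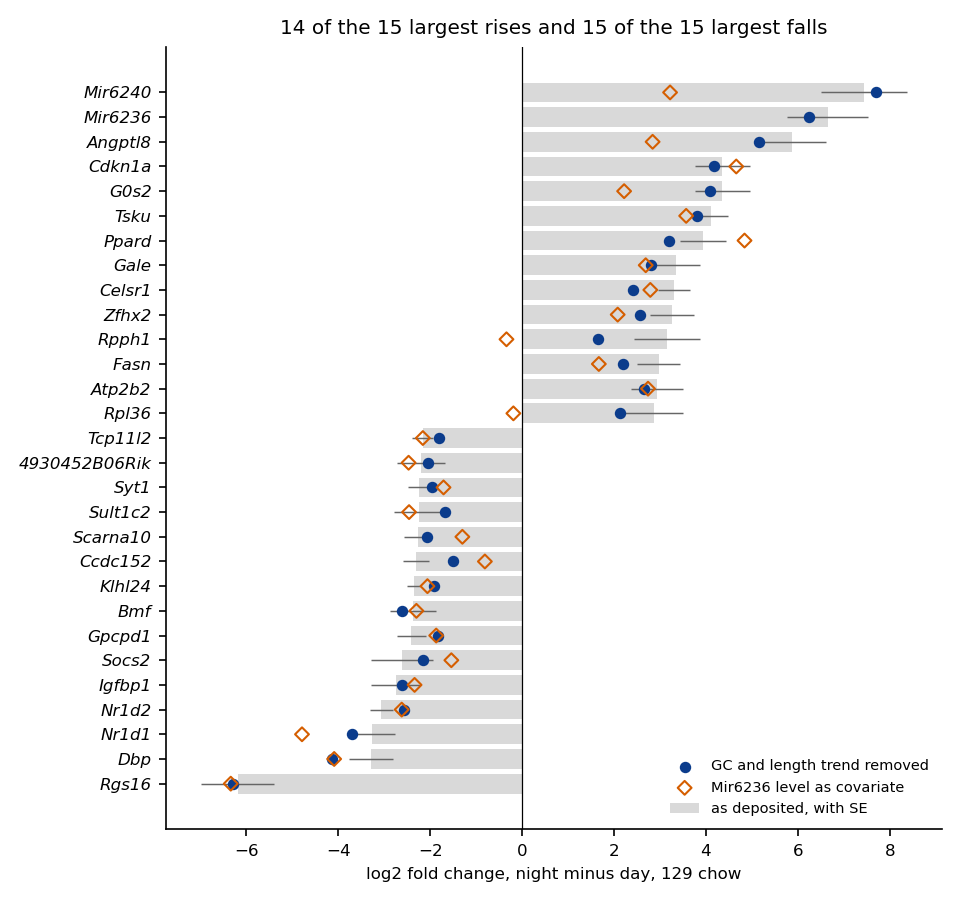
Log2 change from day to night in 129 chow liver for 14 of the 15 largest rises and the 15 largest falls. Grey bars with standard errors are values as deposited, filled points have the GC and length trend removed, and open diamonds have Mir6236 as a covariate (none for Mir6236). Rgs16 stands at -6.19, and at -6.34 with the covariate, while Rpph1 goes from 3.16 to -0.34.

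Nitrogen and one-carbon genes moved in smaller steps. Of 20 genes of amino acid catabolism and the urea cycle 7 rose and 2 fell, against 14.7% and 23.8% of all genes, and 1 and 0 with Mir6236 as a covariate. Asl, the argininosuccinate lyase, went from 349 to 2253 by day (median 1589) to 3822 to 4692 at night (median 3915), a rise of 1.79 (adjusted p = 6.85e-06), or 0.58 with the covariate (adjusted p = 0.347). Ddc, the aromatic amino acid decarboxylase, rose by 1.34 (adjusted p = 1.28e-05). Of 15 genes of the methionine cycle and phosphatidylcholine 6 rose and 2 fell, 10 and 1 with the GC and length trend removed, and 2 and 0 with the covariate. Chka, the choline kinase, rose by 1.56 in 129 chow, 1.98 in 129 on HFD and 1.63 in B6 on chow (adjusted p = 1.07e-05, 1.09e-06 and 5.14e-05). Of 15 genes of NAD metabolism 4 rose and 1 fell, 2 and 2 with the covariate, and 3 and 3 without ZT22 replicate 3. Among the rises were Nnmt, which methylates nicotinamide, at 2.20 (adjusted p = 7.49e-05) and Acmsd at 1.43 (adjusted p = 0.000523). In the interferon list 0 of 14 rose and 4 fell, near the 23.8% of all genes that fell, and 2 fell with the covariate. The falls included Gbp7 (log2 change -1.27, adjusted p = 1.21e-05) and Irf9 (-0.81, adjusted p = 0.000123).

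The large housekeeping complexes had calls in both directions, and their split changed with the processing. For the proteasome 5 of 31 rose and 10 fell as deposited, 13 rose and 1 fell with the GC and length trend removed, and 0 rose and 6 fell with Mir6236 as a covariate. For the respiratory chain the counts of 51 genes were 6 and 8, 16 and 3, and 0 and 1. For 60 cytosolic ribosomal proteins they were 12 and 7, 19 and 4, and 0 and 8. In the same 3 fits 14.7% of all genes rose and 23.8% fell, then 16.6% and 12.1%, and then 2.68% and 4.71%. Without ZT6 replicate 3 the rises were 9 for the proteasome, 16 for the respiratory chain and 29 for the ribosomal proteins, and without ZT6 replicate 1 they were 2, 2 and 7. Psmb4, a proteasome subunit, fell in all 3 fits (log2 change -0.67, -0.61 and -0.94), while Psmd4 was at 0.83, 0.66 and -0.23. Esrrg, the receptor deleted elsewhere in the series, was at 8.53 to 21 by day and 0 to 37.3 at night (log2 change -0.52, adjusted p = 0.374).

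Within each side fewer genes differed. Between ZT22 and ZT18 235 genes passed (2.08% of those tested, 90 higher and 145 lower at ZT22), and without ZT22 replicate 3 the count was 45. Between ZT10 and ZT6 160 passed (1.42%, 82 higher and 78 lower at ZT10), and without ZT6 replicate 3 it was 2845.

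In 129 on HFD the night and day contrast called 294 genes higher (2.6%) and 244 lower (2.16%), and in B6 on chow 208 (1.84%) and 269 (2.38%). Of the 1053 genes that rose in both fits in 129 chow, 185 also rose in 129 on HFD and 1 fell there, and 99 rose in B6 on chow and 15 fell. Their direction was the same in 91.1% and 74.6%, and their median change there was 0.36 and 0.22 against 0.94 in 129 chow. Of the 1079 falls 135 also fell in 129 on HFD and 0 rose, and 101 fell in B6 on chow and 1 rose. A test of the difference between 129 chow and 129 HFD called 63 genes with a higher (0.558%) and 212 with a lower contrast in 129 chow (1.88%). With the GC and length trend removed the split was 158 and 64. With Mir6236 as a covariate 4 genes passed, Nat8f2 (0.93) and Paqr9 (1.44) higher and Slc25a47 (-2.20) and Slc49a4 (-1.58) lower, named after their values were seen. Between 129 chow and B6 chow 536 were higher (4.75%) and 976 lower (8.65%). There the GC and length correction left 506 higher (4.51%) and 252 lower (2.24%), and the Mir6236 covariate 230 in all. These differences share the 129 chow libraries.

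Markers of the cell types of liver were read beside these changes, since in bulk tissue fewer cells of a type and less RNA per cell cannot be told apart. Of all genes tested 14.7% rose and 23.8% fell, the shares against which the counts below are to be read. Of 15 listed hepatocyte markers 14 were in the table and all 14 were tested, with 2 rising and 3 falling at night, or 6 and 2 without ZT6 replicate 3. Their sums were 575987 to 595402 at night and 887033 to 1901612 by day, with no overlap, and Alb was the highest of them in every library. The median log2 change of the 14 markers was -0.10, against -0.11 for all genes. Alb fell from 439903 to 863453 by day (median 863453) to 176662 in all 6 night libraries (log2 change -2.13, adjusted p = 0.000309), and stood at -0.43 with Mir6236 as a covariate (adjusted p = 0.688). Since the highest ranks hold few distinct values, this is a move from the first or second rank to the third. Hnf4a, the hepatocyte master factor, rose by 0.91 (adjusted p = 3.30e-05), or 0.27 with the covariate (adjusted p = 0.457). Of 14 Kupffer cell markers 1 rose and 1 fell, with sums of 2213 to 4367 at night and 2880 to 3720 by day. Of 15 markers of sinusoidal endothelium 1 rose and 2 fell, with sums of 3707 to 4122 and 2433 to 4484. Of 12 stellate cell markers 0 rose and 1 fell (2849 to 3304 and 3197 to 3648). Without ZT6 replicate 3 the rises in these lists were 3, 6 and 2, and 3 stellate markers fell. In the list of red blood cells Hba-a1 and Hba-a2, the 2 near-identical alpha globin genes, rose by 2.85 and 2.79 (adjusted p = 0.000137 and 0.000236), while the beta globins Hbb-bt and Hbb-b2 fell by 1.77 and 1.78 (adjusted p = 0.000661 and 0.00471), and none of these 4 passed with the covariate (adjusted p = 0.0735 to 0.756). The sums of that list were 984 to 1702 at night and 894 to 1397 by day. Of the neutrophil markers 4 of 10 were tested and 0 passed, with sums of 3.67 to 20.4 at night and 6.5 to 15.9 by day. Of the recruited macrophage markers 6 of 11 were tested, with 0 rising and 3 falling (sums of 69.2 to 175 and 143 to 223). With the GC and length trend removed 1 of them fell, and with Mir6236 as a covariate 0 did. Of the lymphocyte and pancreatic acinar markers 1 each was tested and 0 passed, and the T cell gene Cd3e and the acinar genes Prss2, Amy2b and Reg1 were at 0 in the mean of the day libraries. The part of any cell type in the gene changes was not tested.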

How the data were processed

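RNA of 72 wild-type liver libraries was read from the authors' deposited table of signal values. These are quantile-normalised read numbers for 42361 transcripts (25124 gene symbols). They were made with STAR and HOMER on mm10 per the submitters' processing notes, versions not given in the sources used here. All libraries hold the same sorted values, with a total of 10837743, so depth is unknown and a shift of most genes in one direction would be hidden. Total RNA and TruSeq libraries are stated per the labels' protocols; strand is not.

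Values were tested as log2(value + 1), which understates changes of low genes, on the highest-mean transcript per symbol with a mean of at least 10 over 72 libraries. A fit of 24 group means was made in R 4.3.3 with limma 3.58.1, moderated with a mean-variance trend, with Benjamini-Hochberg adjustment over all genes and a threshold of 0.05. The 91 transcripts with no gene name (0.09% of the totals) were left out. GC content and length came from GENCODE vM21, and the trend removed from each library was quadratic in GC and log2 length. Promoters (the 250 bases upstream) and microRNAs came from RefSeq.

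Named were the 15 largest rises and falls called in both fits with both night means beyond both day means and a mean of at least 50 in the higher side, up to 4 members of each of 48 lists, the clock genes, Esrrg, Mir6236 and the 5 largest rises and falls of each difference between sets. Some of these are not reported here, and others are said to be chosen after their values were seen. The comparison, members and lists were chosen with earlier results of these data known. The fit was tested on simulated data. Alternatives covered filter, pseudocount, scaling, transcripts, covariates and leaving out each library.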

Additional observations from a re-analysis of the deposited data

Results flagged for a closer look

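The night and day contrast of these genes differed between sets, by limma's test of the difference itself and by a rule that took the largest differences among genes also called in 129 chow. Mir6236 is listed by its values alone and not as a test, since its split in 129 chow was known when the comparison was chosen. Against 129 on HFD the contrast of 129 chow was higher for Mir6240 by 8.09, for Mir6236 by 7.07, for Angptl8 by 4.30, for G0s2 by 4.01 and for Hist1h1c, a linker histone, by 2.59 on the log2 scale. It was lower for Rgs16 (-5.24), Fzd6 (-3.26), Tagap (-2.76), Rnaset2a (-2.76) and Zik1 (-2.69). Against B6 on chow it was higher for Mir6240 by 7.73, for Mir6236 by 6.01, for Angptl8 by 5.22 and for Zfhx2 by 4.17. It was lower for Rgs16 (-4.02), Rnaset2a (-2.83), Tm6sf1 (-2.67), 1110020A21Rik (-2.66) and Ttc30a1 (-2.64).

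The lower group holds genes of low level. Fzd6, a Wnt receptor, lay between 7.78 and 25.2 by day and between 0 and 8.22 at night in 129 chow, and Zik1, a zinc finger gene, between 5.67 and 29.5 and between 0 and 4.45. Ttc30a1 was at 5.88 to 21 and 0 to 20.4, and its own call in 129 chow (log2 change -1.33, adjusted p = 0.0462) did not pass without any 1 of 7 libraries (ZT6 replicates 1 and 2, ZT10 replicates 2 and 3, ZT18 replicates 1 and 3, and ZT22 replicate 3), with changes of -1.37 to -0.69. Mir6236 moved with the sets, and with it as a covariate Zfhx2 against B6 kept its call (3.11, adjusted p = 0.0215). The other differences given here did not pass, and Mir6236 itself has no such value. Against 129 on HFD those of Mir6240, Angptl8, G0s2 and Hist1h1c were then 3.60, 1.08, 1.73 and 1.19 (adjusted p = 0.463, 0.766, 0.579 and 0.619), and that of Rgs16 was -5.40 (adjusted p = 0.148). Against B6 on chow those of Mir6240, Angptl8 and Rgs16 were 3.92, 2.48 and -4.16 (adjusted p = 0.0847, 0.193 and 0.0815). With the GC and length trend removed Tagap against 129 on HFD and Tm6sf1 and Ttc30a1 against B6 did not pass (adjusted p = 0.0545, 0.0578 and 0.0642).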

How the results depend on the processing

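The night and day contrast called 4343 genes in 129 chow, and 3101 with only the 12 libraries (1420 rose, 1681 fell). With Mir6236 as a covariate it called 833, with ZT10 alone as the day 1673 (574 rose, 1099 fell) and with ZT10 alone and the GC and length trend removed 1643 (931 rose, 712 fell), the last 2 chosen after seeing the data. Leaving out 1 library gave 3196 to 5184, the highest without ZT6 replicate 3. ZT22 against ZT18 called 235 genes, 6 with only the 12 libraries, 130 with a pseudocount of 10, 2153 with no filter, 121 with a mean of at least 50, 384 with the GC and length trend removed, and 45 to 686 leaving out 1 library (45 without ZT22 replicate 3, 686 without ZT22 replicate 2). ZT10 against ZT6 called 160, 60 with only the 12 libraries, 79 with no filter, 248 with a mean of at least 50, 95 with the trend removed, 36 with the covariate, and 22 to 2845 leaving out 1 (22 without ZT6 replicate 1, 2845 without ZT6 replicate 3). The difference from 129 on HFD called 275, 134 with no filter, 4 with the covariate and 114 to 1128 leaving out 1 (114 without ZT10 replicate 3, 1128 without ZT6 replicate 3). That from B6 on chow called 1512, 986 with no filter, 758 with the trend removed, 230 with the covariate and 833 to 2393 leaving out the same libraries. The contrast in 129 on HFD, 538 with all libraries, called 524 to 585, and that in B6 on chow, 477, called 459 to 522. The GC slope difference ranged from 0.46 to 0.74 and that of Mir6236 from 5.90 to 7.18 (log2) leaving out 1 library. The cause of these moves was not tested.

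Rbm3 stood at 0.12 with the trend removed. With the covariate Gapdh (-0.30), Rpph1 (-0.34), Rpl36 (-0.19), Psmd4 (-0.23) and Rn45s (-0.71) changed sign. Of the genes reported here, 48 no longer passed with the covariate and 62 neither lost nor reversed a call. With the trend removed the counts were 8 and 104. The 62 and 104 can include genes with no call to lose, such as Per1. Of all 185 called genes that the naming rule picked, 55 were called in the same direction with the covariate and 142 with the trend removed.

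The replicate numbers did not pair the libraries: of 18 same-numbered pairs 0 correlated above 0.1 (-0.58 to 0.10). With the replicate number as a block 4308, 226, 142, 527, 467, 261 and 1469 genes passed in the 7 contrasts, in the order night and day, ZT22 and ZT18, ZT10 and ZT6, 129 on HFD, B6 on chow and the differences from 129 on HFD and B6 on chow. Depth is unknown, so what it limits cannot be given.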
